A study of Homo sapiens with 6 samples.

Results

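The 10 genes VEGFA, VEGFB, VEGFC, PGF, ANGPT1, ANGPT2, ANGPTL4, KDR, NRP1 and NRP2 were taken by name from a table of 61731 genes and loci measured in U87-MG, an established human glioblastoma cell line. They are the vascular endothelial growth factor (VEGF) ligands, the angiopoietins and a related secreted protein, a VEGF receptor and both neuropilins. The table held 6 libraries of total RNA from U87-MG cells, 3 of negative control and 3 labelled as knockdown of CHRM. By the study's methods this is CHRM3, the muscarinic acetylcholine receptor M3, knocked down by lentivirus, and which of its knockdown sequences each library carries is not stated. No other treatment, time or genotype is given for either group. The labels number the libraries 1 to 3 in each group but do not say whether these came from separate cultures, so the p-values measure the spread between these libraries, which may be technical.

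VEGF ligands are secreted proteins that bind receptor tyrosine kinases on endothelial cells and drive the growth and leakiness of blood vessels. VEGFA acts mainly through KDR, VEGFB and PGF bind FLT1, and VEGFC binds FLT4 and also KDR. The neuropilins NRP1 and NRP2 are co-receptors without a kinase domain, which bind VEGF ligands as well as class 3 semaphorins. ANGPT1 and ANGPT2 are ligands of the endothelial receptor TEK, the former an agonist and the latter largely its antagonist, while ANGPTL4 is a secreted inhibitor of lipoprotein lipase. Glioblastoma is known for dense, abnormal vessels, and its VEGFA is induced by hypoxia through the hypoxia-inducible factors (HIFs).

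HIFs bind DNA at the core ACGTG or GCGTG, and stretches with such a core are shown because VEGFA and ANGPTL4 are read below against other HIF targets. RefSeq promoter windows (build GRCh38.p14, 250 bases before to 50 after a gene's start) were found for 6 of the 10 genes, namely VEGFB, VEGFC, PGF, ANGPTL4, KDR and NRP2, and none was used for VEGFA, ANGPT1, ANGPT2 or NRP1. Both cores were searched on both strands, and a CACGTG counts once on each strand. In the lines below, each of 29 bases, the letters run 5′ to 3′ on the gene's strand and the capitals mark the core or its reverse complement.
VEGFB, chr11:64234511-64234539, plus strand: ccggtggggagcGCGTGtctgggtcacat
VEGFC, chr4:176792965-176792993, minus strand: gcccgggctcggCACGCtccctccctcgg
PGF, chr14:74955743-74955771, minus strand: gagagcccctcgCACGCactgcgggctcc
ANGPTL4, chr19:8363909-8363937, plus strand: ggaaagaagagtCACGTctcccacggttc
CA9, chr9:35673898-35673926, plus strand: tcgtttccaatgCACGTacagcccgtaca
LDHA, chr11:18394464-18394492, plus strand: cagcccgactcaCACGTgggttcccgcac
The 6 genes had 7 windows, 5 of them with a core, beside 48.4% of all 35116 promoter windows, and the windows of KDR and NRP2 held none. The windows of PGF overlap and share a core, so by gene 4 of the 6 held one. ANGPTL4 alone among them held ACGTG, which 21.4% of all windows hold. Of the 13 hypoxia targets used below, 12 had 16 windows, 15 of these with a core and 8 with ACGTG. Some of these windows also overlap, and by gene all 12 held a core. The window of LDHA, an abundant target, was picked for display after the values were seen. The RefSeq starts differ from the gene positions given below, and the stretches of PGF and ANGPTL4 lie wholly inside the gene spans given there. These matches describe letters in short windows and not bound sites.

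TPM is a share of the library that takes transcript length into account, holds no read depth and leaves the counting error unknown. Changes are given on the scale log2(TPM + 1), which understates those of low genes. The paper reports efficient knockdown of CHRM3 in U87-MG cells from its own measurements of CHRM3 levels. In these libraries, the targeted gene did not tell the groups apart. CHRM3 was 0.02, 0.09 and 0.13 TPM among controls and 0.13, 0.01 and 0.02 TPM under the knockdown label, close to the rounding step (exact two-sided permutation p = 0.80), and directions below therefore follow the labels. Mitochondrial transcripts took 5.32% to 5.47% of TPM among controls and 4.41% to 4.87% in the other group, and with the mitochondrial genes left out the same 4 of the 10 genes passed the test described below. Of 8 glial and glioma markers, only VIM and CD44 were abundant. NES was 1.98 to 4.01 TPM and GFAP 0.87 to 1.46 TPM. S100B, OLIG2 and SOX2 did not exceed 0.42, 0.56 and 0.09 TPM, and AQP4 was listed at 0 TPM in every library. These values do not by themselves show a glial identity. VIM and NES rose (limma adjusted p = 0.000416 and 0.0151), CD44 fell (limma adjusted p = 0.000529) and GFAP did not pass the test. Of 10 endothelial markers, 9 stayed under 1 TPM in every library and CLDN5 was listed at 0 TPM throughout, with a summed level of 1.45 to 2.22 TPM among controls and 0.87 to 1.91 TPM under the knockdown label. Of 8 pericyte and smooth muscle markers, 3 were under 1 TPM, and the sum of all was 55.86 to 62.93 TPM and 55.88 to 61.77 TPM. CSPG4 among them fell from a mean of 28.9 to 24.94 TPM (limma adjusted p = 0.00646). The means of RGS5, MCAM and NOTCH3 were higher under the knockdown label and that of ABCC9 lower, all without passing the test. Of 8 leukocyte markers, TYROBP and CD3E were listed at 0 TPM throughout and PTPRC did not exceed 0.12 TPM. The leukocyte sum of 122.2 to 125.8 TPM among controls and 55.2 to 62.8 TPM under the knockdown label was nearly all LCP1, an actin-bundling protein.

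VEGFA was by far the most abundant of the 10 genes, followed in both groups by NRP1, NRP2, VEGFB, VEGFC and ANGPTL4. These 6 lay between 30.43 and 314.55 TPM in every library, whereas KDR and ANGPT1 lay between 1.35 and 3.54 TPM. PGF and ANGPT2 stayed below 0.5 TPM, under the mean of 1 TPM required for testing. Neighbours in this order overlapped in 1 place per group, VEGFC with ANGPTL4 in the controls and NRP2 with VEGFB under the knockdown label. KDR and ANGPT1 changed places, since every control library had more KDR than ANGPT1 and every knockdown-labelled library had more ANGPT1 than KDR.

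**Figure D1:**
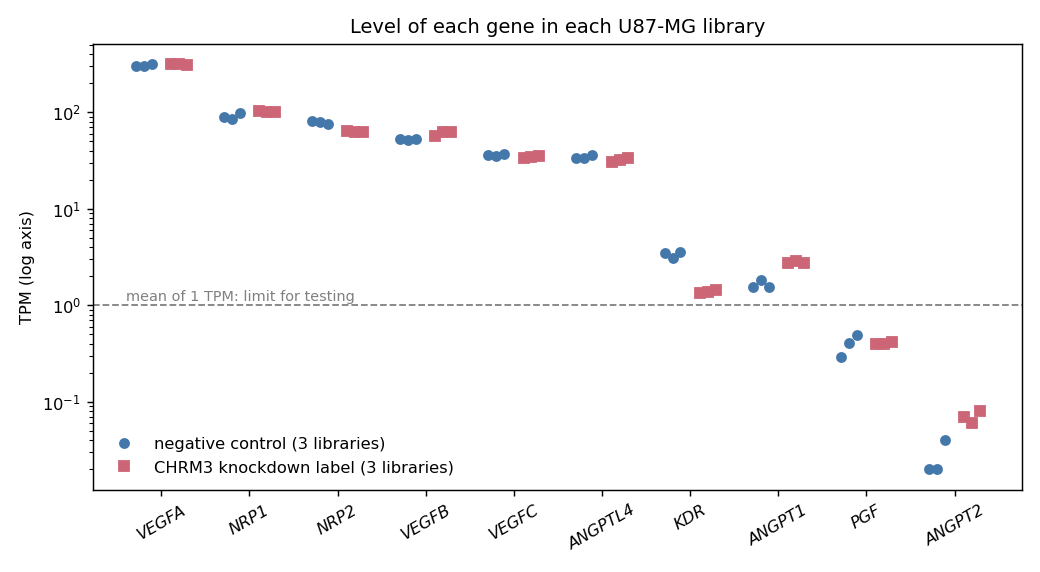
TPM of each of the 10 genes on a log axis, with 1 point per library (circles, 3 negative control; squares, 3 labelled CHRM3 knockdown); the dashed line marks the mean of 1 TPM needed for testing. VEGFA lay near 300 TPM in all 6 libraries, KDR and ANGPT1 exchanged their order, and PGF and ANGPT2 lay below the line.

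Of the 8 tested genes, 4 passed the test at an adjusted p under 0.05 (limma on log2(TPM + 1), Benjamini-Hochberg over 13722 genes), beside 36.1% of all tested genes. VEGFB and ANGPT1 rose, beside 12.1% of all genes that rose, and KDR and NRP2 fell, beside 24.0% that fell. The 3 values of each group did not overlap for 6 of the 8, against 50.2% of all tested genes. The median log2 fold change was -0.01 for the 8 genes and -0.06 for all tested genes. The 4 genes past the test went in both directions.

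**Figure D2:**
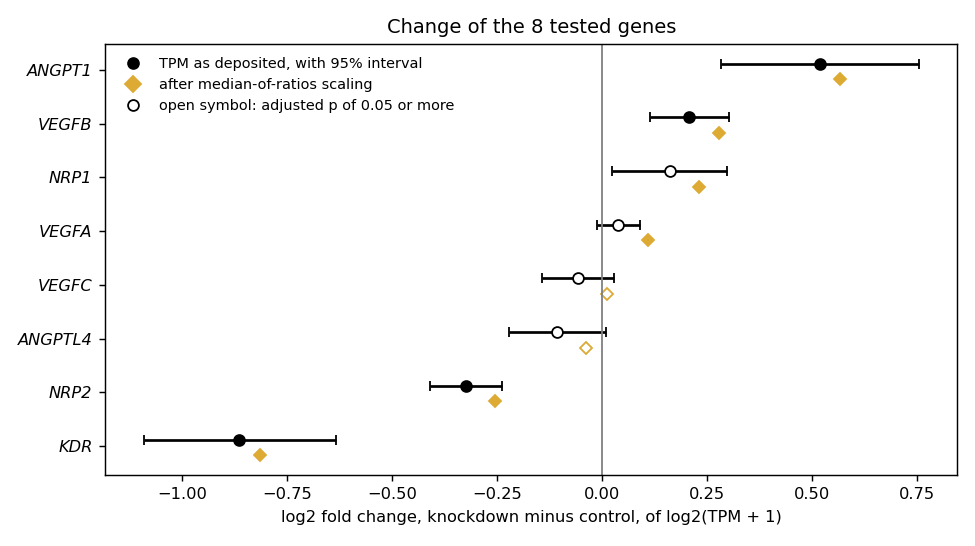
Log2 fold change of log2(TPM + 1), knockdown minus control, for the 8 tested genes, with 95% intervals for TPM as deposited (circles) and the value after median-of-ratios scaling (diamonds); open symbols have an adjusted p of 0.05 or more. KDR at -0.86 and NRP2 at -0.32 lay left of 0 and ANGPT1 at 0.52 and VEGFB at 0.21 lay right of 0 on both scales, while VEGFA and NRP1 had filled symbols only after scaling.

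VEGFA, the main VEGF ligand, did not pass the test. The gene (ENSG00000112715, chromosome 6 from 43770184 to 43786487, GRCh38) was 299.30, 302.43 and 312.76 TPM among controls and 314.55, 312.71 and 312.37 TPM under the knockdown label. The highest control lay within the range of the other group, and the means differed by 2.75%. Its log2 fold change was 0.04 (95% interval -0.01 to 0.09, adjusted p = 0.206 by limma). After median-of-ratios scaling, which moves the median of all genes from -0.06 to 0.00, the value was 0.11 and passed the test (limma adjusted p = 0.00778), and with quantile normalization it was 0.08 (limma adjusted p = 0.0407).

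A short antisense gene lies inside the VEGFA locus. ENSG00000272114, a feature picked out after its values were seen, spans 188 bases of the minus strand from 43770429 to 43770616 on chromosome 6 and lies inside exon 1 of 2 of the 32 VEGFA transcripts in the annotation (GENCODE 29). It was 119.67, 109.42 and 112.79 TPM among controls and 86.60, 45.73 and 77.89 TPM under the knockdown label, with no overlap and a log2 fold change of -0.74 (adjusted p = 0.0422 by limma). TPM takes transcript length into account, so this level rests on only 188 bases and is not read as an abundant transcript. Without strand, which is not stated for this quantification, the reads of ENSG00000272114 and those of VEGFA cannot be told apart. The call is fragile, since the limma adjusted p was 0.11, 0.0893 and 0.0995 without control replicates 1, 2 and 3 and 0.0598 without knockdown replicate 3. Without knockdown replicate 2, its lowest value, the log2 change shrank to -0.47 (limma adjusted p = 0.00469).

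VEGFB, a ligand of FLT1 linked to the survival of vascular and neural cells, rose modestly. It (ENSG00000173511, chromosome 11 from 64234538 to 64238793) was 52.35, 52.06 and 52.49 TPM among controls and 57.39, 62.08 and 62.41 TPM in the libraries labelled knockdown. All 3 of the latter lay above all controls, with means of 52.3 ± 0.219 and 60.6 ± 2.81 TPM (SD, n = 3 each), a rise of 15.9%. The log2 fold change was 0.21 (SE 0.0387, adjusted p = 0.00726 by limma).

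The lymphangiogenic ligand VEGFC (ENSG00000150630, chromosome 4 from 176683538 to 176792727) was 35.92, 35.43 and 36.73 TPM among controls and 33.51, 34.77 and 35.50 TPM under the knockdown label. The groups overlapped slightly, and the log2 fold change of -0.06 (95% interval -0.14 to 0.03) did not pass the test (adjusted p = 0.258 by limma) and changed sign to 0.01 after median-of-ratios scaling. PGF, placental growth factor (ENSG00000119630, chromosome 14 from 74941834 to 74955784), was 0.29, 0.41 and 0.49 TPM and 0.40, 0.40 and 0.42 TPM, so the second group lay within the range of the first (exact two-sided permutation p = 0.90, where the smallest possible p is 0.10).

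VEGFA dominated the VEGF ligand pool in both groups. Of the summed TPM of VEGFA, VEGFB, VEGFC and PGF, VEGFA took 77.2% to 77.7% in the controls and 76.1% to 77.5% under the knockdown label. The share of VEGFB was 13.04% to 13.5% and 14.1% to 15.2%, and that of VEGFC 9.08% to 9.26% and 8.26% to 8.64%, without overlap in either case. These shares are ratios within a library and do not depend on its scaling. The sum itself was 387.9 to 402.5 TPM among controls and 405.9 to 410.7 TPM in the other libraries.

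KDR, the main signalling receptor for VEGFA, showed the largest relative change among the tested genes of the group. It (ENSG00000128052, chromosome 4 from 55078259 to 55125595) was 3.45, 3.12 and 3.54 TPM among controls and 1.35, 1.39 and 1.46 TPM under the knockdown label. Every control lay above every knockdown-labelled value by more than the spread within either group, and the mean fell from 3.37 ± 0.221 to 1.40 ± 0.0557 TPM (SD, n = 3 each), a change of -58.5%. The log2 fold change was -0.86 (SE 0.0949, adjusted p = 0.000857 by limma) and reached -1.21 with a pseudocount of 0.1, since a pseudocount of 1 shrinks the change of a low gene. Among all tested genes, 4.11% had a larger absolute log2 fold change. The endothelial markers were low in the same libraries, and only TIE1 reached 1 TPM, in control replicate 1. Its means were 0.657 TPM among controls and 0.257 TPM under the knockdown label, with overlapping groups. In bulk RNA, fewer cells with KDR and less KDR per cell cannot be told apart.

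Of both neuropilins, NRP2 fell and NRP1 did not pass the test. NRP2 (ENSG00000118257, chromosome 2 from 205681990 to 205798133), the neuropilin tied to VEGFC and lymphatic growth, was 81.97, 78.46 and 76.40 TPM among controls and 64.56, 61.94 and 62.07 TPM under the knockdown label. All 3 knockdown-labelled values lay below the controls, with a log2 fold change of -0.32 (SE 0.0355, adjusted p = 0.000847 by limma). NRP1 (ENSG00000099250, chromosome 10 from 33177492 to 33336262), the neuropilin tied to VEGFA, was 89.14, 84.53 and 98.97 TPM among controls and 103.36, 100.94 and 100.45 TPM in the other group. Its groups did not overlap either, but control replicate 3 lay close to the knockdown-labelled values and the coefficient of variation was 8.12% among the controls against 1.53% in the other group. The log2 fold change of 0.16 had a limma adjusted p of 0.0679, and it passed the test without control replicate 3 (0.22, adjusted p = 0.00811 by limma), after median-of-ratios scaling (0.23, limma adjusted p = 0.0202) and with quantile normalization (limma adjusted p = 0.0229).

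The ratio of NRP1 to NRP2 was 1.09, 1.08 and 1.30 in the controls and 1.60, 1.63 and 1.62 under the knockdown label, with means of 1.15 ± 0.123 and 1.62 ± 0.0146 (SD, n = 3 each). Their summed TPM overlapped, at 163.0 to 175.4 and 162.5 to 167.9. Neuropilin transcripts far outnumbered those of KDR in both groups, NRP1 by 25.8 to 28.0 times in the controls and by 68.8 to 76.6 times under the knockdown label.

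**Figure D3:**
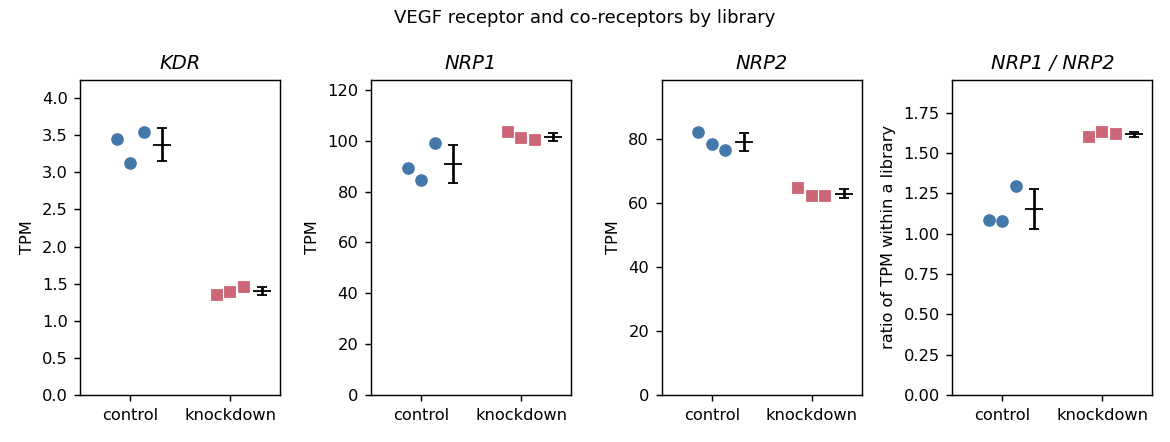
TPM of KDR, NRP1 and NRP2 and the ratio of NRP1 to NRP2 in each library on linear axes from 0 (circles, 3 negative control; squares, 3 labelled CHRM3 knockdown), with the mean and SD of each group in black. KDR and NRP2 were lower in all 3 knockdown-labelled libraries, NRP1 had a wide spread among the controls, and the mean ratio was 1.15 and 1.62.

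ANGPT1, the agonist of TEK, rose from a low level. It (ENSG00000154188, chromosome 8 from 107249482 to 107498055) was 1.56, 1.84 and 1.55 TPM among controls and 2.74, 2.86 and 2.78 TPM in the libraries labelled knockdown. The groups were well apart, with a mean 1.69 times as high under the knockdown label and a log2 fold change of 0.52 (SE 0.098, adjusted p = 0.00775 by limma). ANGPT2 (ENSG00000091879, chromosome 8 from 6499651 to 6563409) was barely present, at 0.02, 0.02 and 0.04 TPM among controls and 0.07, 0.06 and 0.08 TPM in the other group. These values did not overlap but are only a few rounding steps of 0.01 TPM (exact two-sided permutation p = 0.10, the smallest possible), and ANGPT2 lies within the span of MCPH1 on the opposite strand, which was 8.58 TPM among controls and 6.99 TPM in the other group.

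ANGPTL4 (ENSG00000167772, chromosome 19 from 8363289 to 8374373) was 33.52, 34.03 and 36.02 TPM among controls and 30.43, 32.17 and 33.44 TPM under the knockdown label. The groups were separated by a narrow gap, and the log2 fold change of -0.11 (95% interval -0.22 to 0.01) did not pass the test (limma adjusted p = 0.134).

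**Figure D4:**
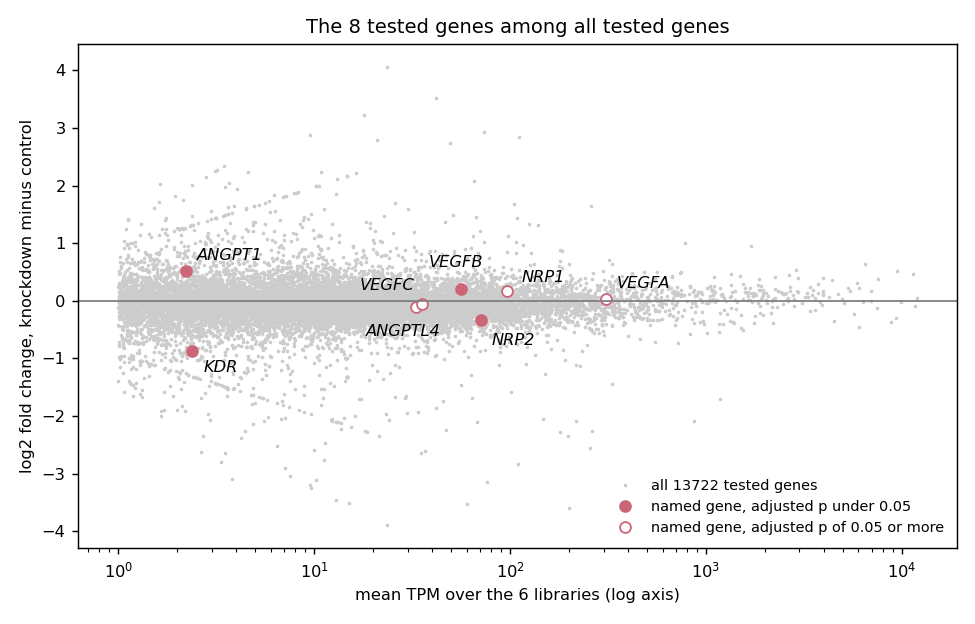
Log2 fold change, knockdown minus control, against the mean TPM over the 6 libraries (log axis) for all 13722 tested genes (grey), with the 8 tested genes in red, filled where the adjusted p was under 0.05. KDR and ANGPT1 were low-level genes in the outer part of the cloud, and VEGFA lay near 0 at high level.

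The receptors that complete these systems were nearly absent. FLT4, the receptor of VEGFC, was listed at 0 TPM in all 6 libraries, and FLT1, the receptor of VEGFB and PGF, did not exceed 0.03 TPM. TEK, the angiopoietin receptor, was 0.04, 0.06 and 0.04 TPM among controls and 0.10, 0.10 and 0.08 TPM in the other group. The orphan receptor TIE1 was 1.06, 0.41 and 0.50 TPM and 0.11, 0.15 and 0.51 TPM, with overlapping groups. KDR was thus the most abundant of the VEGF and angiopoietin receptor tyrosine kinases in these cells. Of the 13 further genes of these families, 12 were under the limit for testing, and ANGPTL2 was tested without passing (limma adjusted p = 0.852).

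Among 13 semaphorin ligands, plexins and a binding protein of the neuropilins, 8 were tested, of which 1 rose, 1 fell and 6 did not pass (25% past the test, against 36.1% of all genes). SEMA3C, a secreted semaphorin that binds both neuropilins, rose from 27.0 ± 0.758 to 34.4 ± 1.05 TPM (± SD, n = 3 per group; log2 change 0.34, adjusted p = 0.00109 by limma). GIPC1, an adaptor that binds the tail of NRP1, fell from 240.5 ± 9.77 to 201.4 ± 3.38 TPM (± SD, n = 3 per group; log2 change -0.25, adjusted p = 0.00169 by limma).

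Of 12 genes for ligand processing and release, 7 were tested, 4 of them fell and 1 rose (71.4% past the test, against 36.1% of all genes), with a median log2 fold change of -0.17 beside -0.06 for all genes. CCBE1, a cofactor for the cleavage of VEGFC, was 8.67 ± 1.13 and 6.75 ± 0.217 TPM, and the proprotein convertase PCSK5 was 6.31 ± 0.487 and 4.98 ± 0.255 TPM (SD, n = 3 each). Their falls by 0.31 and 0.29 on the log2 scale had limma adjusted p of 0.0441 and 0.0269, which rose above 0.05 in 11 and 8 of 16 alternative fits. For CCBE1 the limma adjusted p was 0.126 without control replicate 2 or 3, 0.107 without knockdown replicate 1 or 3 and 0.0815 without knockdown replicate 2. For PCSK5 it was 0.0839 and 0.0698 without control replicates 1 and 3, and 0.076 and 0.0743 without knockdown replicates 1 and 3. PLAU, the urokinase that releases growth factors bound to matrix, rose from 286.3 ± 5.05 to 355.1 ± 5.56 TPM (limma adjusted p = 0.000145). LPL, the lipase that ANGPTL4 inhibits, was listed at 0 TPM in all 6 libraries.

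Of 16 other angiogenic ligands, 14 were tested, of which 4 rose, 5 fell and 5 did not pass (64.3% past the test, against 36.1% of all genes). EDN1, among those that fell, had means of 1.56 TPM among controls and 0.667 TPM under the knockdown label. It reached the limit for testing only through the controls, and the counts carry that selection. FGF2, basic fibroblast growth factor, fell from 35.6 ± 0.857 to 16.0 ± 0.488 TPM (± SD, n = 3 per group; log2 change -1.11, adjusted p = 1.08e-05 by limma). HGF, the ligand of the MET receptor, rose from 2.35 ± 0.494 to 7.64 ± 0.4 TPM, and APLN, the vascular peptide apelin, rose from 7.47 ± 0.229 to 16.9 ± 0.53 TPM (SD, n = 3 each). Their log2 fold changes were 1.38 and 1.08 (limma adjusted p = 0.000377 and 2.63e-05).

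Of 11 inhibitors of angiogenesis, 8 were tested, of which 4 rose, 1 fell and 3 did not pass (62.5% past the test, against 36.1% of all genes). THBS1, thrombospondin that counters VEGF signalling, rose from 0.997 ± 0.00577 to 4.92 ± 0.478 TPM (± SD, n = 3 per group; log2 change 1.56, adjusted p = 9.73e-05 by limma). TIMP3, a protease inhibitor that also blocks the binding of VEGFA to KDR, was 0.65, 0.91 and 0.94 TPM among controls and 6.48, 6.35 and 5.79 TPM under the knockdown label (log2 change 1.98, adjusted p = 5.25e-05 by limma). The control means of THBS1 and TIMP3 were under 1 TPM, so both reached the limit for testing only through the group where they are high, and their counts in the list carry that selection. With no limit on low values, their limma adjusted p were 0.000684 and 0.000383. THBS3 rose by 0.45 (limma adjusted p = 0.0201, above 0.05 in 4 of 16 alternative fits, among them 0.0547 without control replicate 2 and 0.0613 without knockdown replicate 1).

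VEGFA and ANGPTL4 are both classic HIF targets, and other HIF targets rose in the same libraries. Of 13 hypoxia targets, all tested, 11 rose, 1 fell and 1 did not pass (92.3% past the test, against 36.1% of all genes), with a median log2 fold change of 0.94. This list, like the others, was written with earlier results of these data known, so its share is a description and no independent support. CA9, a carbonic anhydrase, was 47.52, 50.65 and 50.56 TPM among controls and 162.41, 160.34 and 158.44 TPM under the knockdown label, with a log2 fold change of 1.67 (95% interval 1.60 to 1.75, limma adjusted p = 1e-06). BNIP3, a mitophagy receptor, rose by 1.65 and NDRG1, a stress-responsive gene, by 1.31 on the log2 scale. ADM and PFKFB3, named after their values were seen, were the exceptions, with log2 fold changes of -0.13 (limma adjusted p = 0.00688, not past the test after either rescaling) and -0.01 (limma adjusted p = 0.859). VEGFA (95% interval -0.01 to 0.09) and ANGPTL4 (-0.22 to 0.01) did not pass the test, and the interval of PFKFB3 (-0.12 to 0.095) overlapped both. VEGFA was 6.30, 5.97 and 6.19 times as abundant as CA9, the target with the largest change, in the controls and 1.94, 1.95 and 1.97 times as abundant under the knockdown label.

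Of 8 regulators of the HIF pathway, 7 were tested, of which 2 rose and 1 fell (42.9% past the test, near the 36.1% of all genes). HIF1A, the oxygen-sensitive subunit, rose from 168.4 ± 1.98 to 200.8 ± 6.06 TPM (± SD, n = 3 per group; log2 change 0.25, adjusted p = 0.00081 by limma). The prolyl hydroxylase EGLN2, which marks HIF for degradation, fell from 92.7 ± 1.37 to 65.1 ± 1.78 TPM (log2 change -0.50, adjusted p = 7.59e-05 by limma). EGLN1, a further hydroxylase, was 9.56 ± 2.49 and 14.6 ± 2.07 TPM (SD, n = 3 each) and passed the test narrowly (limma adjusted p = 0.0416), a call lost in 9 of 16 alternative fits. Among these, the limma adjusted p was 0.115 and 0.12 without control replicates 2 and 3 and 0.0893, 0.119 and 0.0546 without knockdown replicates 1, 2 and 3. ANGPTL4 is also induced by the lipid-sensing PPAR receptors. Of 8 PPAR targets, 4 were tested and 1 passed (25%, against 36.1% of all genes). This was CPT1A of fatty acid oxidation, which fell by 0.44 on the log2 scale (limma adjusted p = 0.000511).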

How the data were processed

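RNA of U87-MG cells was sequenced. For 61731 genes and loci in 6 libraries, the deposited table gives TPM with 2 decimals, as computed by the authors. The submitters' processing notes name fastp, RSEM and the build GRCh38.p13. Versions, aligner, annotation, filters and use of strand are not given in the sources used here. The sample labels and the paper name different kits for RNA extraction and library preparation, so how the libraries were made is not settled. TPM holds no read depth, so depth and counting error are unknown. Each of the 6 columns matched 1 sample title. Of 61541 Ensembl identifiers, 61369 had a symbol. Gene positions came from GENCODE 29 (GRCh38).

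A linear model with group as its only term was fitted to log2(TPM + 1) by limma 3.58.1 (R 4.3.3; lmFit, then eBayes with a mean-variance trend). It covered 13722 genes whose mean over the libraries reached 1 TPM, with Benjamini-Hochberg adjustment over all of them. A run on simulated data placed changes larger than most of those here on genes well above that limit. That run does not cover small changes or low genes. An adjusted p under 0.05 counted as past the test. Genes under 1 TPM were compared with an exact two-sided permutation test. Named genes were the 10 members, CHRM3, the other VEGF and angiopoietin receptors and, from each list, the 3 largest changes past the test. Outside that rule, ENSG00000272114, ADM, PFKFB3, LDHA, LPL, ANGPTL2, EDN1 and the marker genes were named after their values were seen. The members and lists were chosen with earlier results of these data known. Alternatives varied the pseudocount (0.1, 0.5), the limit (none, 0.1 and 5 TPM), the scaling, the trend, a replicate term and the libraries.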

Additional observations from a re-analysis of the deposited data

How the results depend on the processing

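KDR, NRP2, VEGFB and ANGPT1 kept their direction and passed the test in every alternative fit that tested them, with log2 fold changes of -1.21 to -0.81, -0.35 to -0.25, 0.19 to 0.28 and 0.49 to 0.73. With the limit of 5 TPM, KDR and ANGPT1 were no longer tested. This left 2 of 6 tested genes past the test, 1 higher and 1 lower, beside 4492 of 9806 genes in all. Fewer inhibitors were tested as well, and 3 of 4 passed in place of 5 of 8. Median-of-ratios scaling and quantile normalization move the median of all genes from -0.06 to 0.00. Each gave 4 higher genes of 8 tested, with VEGFA and NRP1 added, and 2 of 4 tested PPAR targets in place of 1. Of all genes, 4540 of 13714 and 4462 of 13722 then passed. These scalings turned VEGFC to 0.012 and 0.017 and PFKFB3 to 0.057 and 0.064. With 1 library left out, PFKFB3 ranged from -0.052 to 0.023. Of 7 tested genes for ligand processing, 3 passed in place of 5 with either scaling. With no limit, 3 of 11 tested passed, beside 4033 of 30412 genes in all. With 1 library left out, 3 to 4 of 7 passed, beside 3850 of 13712 to 4210 of 13728 genes in all. PPAR targets past the test then numbered 1 to 2 of 4. The cause was not tested. Deviations of same-numbered libraries from their group means correlated at -0.02, 0.03 and 0.03, and not every library correlated best with its own number. Values this near 0 cannot tell whether same-numbered libraries shared a culture or a batch. With the replicate block, 4 of the 8 tested genes, 4007 of 13722 genes in all and 3 of 7 tested ligand processing genes passed. Unknown read depth limits what can be said of PGF, ANGPT2 and the receptors near 0.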
